A study of Homo sapiens with 13 samples.

Results

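The genes described here carry folates and the antifolate methotrexate (MTX) into the cell and into its mitochondria, or set the length of their glutamate chain. The 9 genes were SLC19A1, SLC46A1, FOLR1, FOLR2, FOLR3, SLCO1B1, SLC25A32, FPGS and GGH. They were taken by name from the 18568 genes of the array, through every probe set annotated to 1 of these symbols alone. This gave 20 of the 42450 probe sets, with 7 for SLC19A1, 4 for SLC46A1, 2 each for FOLR1 and FOLR2, and 1 for each of the other members. A gene was read from its probe set with the highest mean. The study profiled 13 established lines of acute lymphoblastic leukemia (ALL) on HG-U133 Plus 2.0 arrays, with 1 array per line, after 30 hours of culture without any drug. The 7 lines of T-cell ALL (T-ALL) were CCRF-CEM, Jurkat, Molt4, HPB-ALL, ALL-SIL, TALL-1 and P12-ICHIKAWA. The 6 lines of B-cell precursor ALL (BCP-ALL) were 697, Nalm6, REH, RS4,11, Nalm16 and Nalm30. No culture held MTX, so all levels are those before exposure, and no line had a repeat array.

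Folates and MTX enter blood cells mostly through the reduced folate carrier, encoded by SLC19A1, and also through the proton-coupled folate transporter and the folate receptors. Inside the cell, folylpolyglutamate synthetase (FPGS) adds glutamates, which keeps the drug in the cell and strengthens its hold on its target enzymes. Gamma-glutamyl hydrolase (GGH) removes them again in the lysosome, and leukemia cells of the B and T lineages are known to differ in how much MTX polyglutamate they build up.

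Values are log2(signal + 16), so the lowest possible value is 4. A value below 5 is called near the floor, and the level of a gene in a line is a mean over all its cells. Signals of different probe sets are not on 1 scale, so levels were compared between lines within a probe set and never between genes. The lineage labels fitted their markers. Of 7 T-lineage markers, 6 were higher in every T-ALL line than in any BCP-ALL line, all but CD2. Of 6 B-lineage markers measured, 5 were lower in every T-ALL line, all but VPREB1. Array medians were 5.15 to 5.32 in T-ALL and 5.05 to 5.37 in BCP-ALL, where Nalm16 and Nalm30 had the lowest, 5.05 and 5.09. P12-ICHIKAWA and TALL-1 were very alike (r = 0.993 over all probe sets, with no value identical), then Nalm16 and Nalm30 (r = 0.959). The median absolute difference was 0.126 log2 units between P12-ICHIKAWA and TALL-1, and 0.308 between Nalm16 and Nalm30. Both pairs were kept as separate lines, as labelled. Whether the lines of a pair are independent was not tested. The call counts, the lineage fit of the 6 members tested, the IC50 fits of FPGS, GGH and SLC25A32, and FPGS minus GGH by lineage and against the IC50 over all lines were repeated with P12-ICHIKAWA and TALL-1 as 1 line and without Nalm16 and Nalm30.

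**Figure D1:**
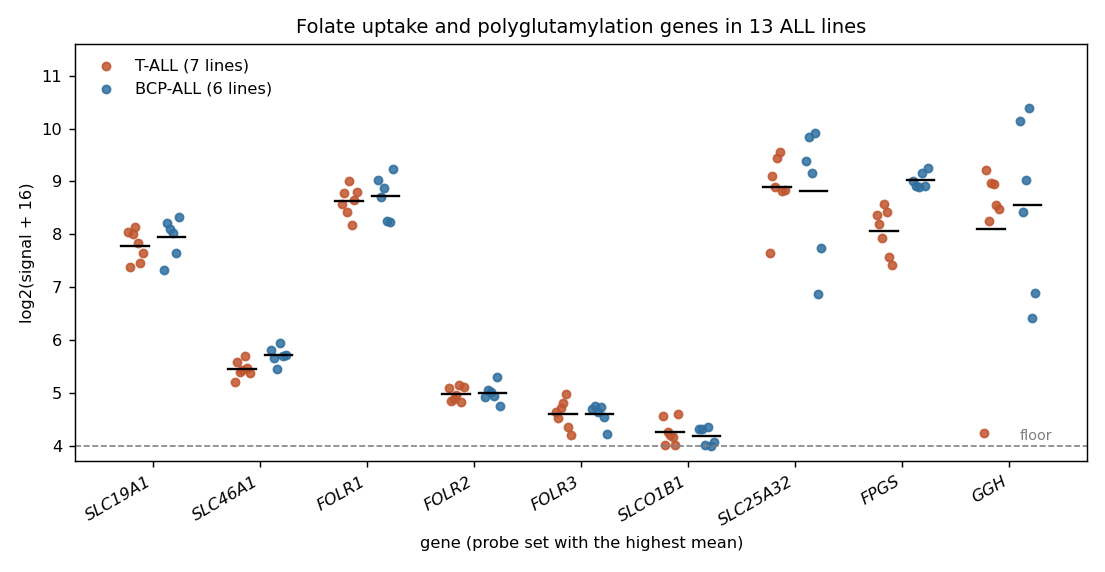
Level of each of the 9 genes in 13 ALL lines as log2(signal + 16), 1 point per line, T-ALL left and BCP-ALL right, with the mean of each lineage as a black bar and the floor of 4 as a dashed line. FPGS is the gene whose lineages do not overlap, and GGH spreads most, with ALL-SIL at 4.24.

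Of the 9 members, 6 lay above the median of their array in at least 3 lines and entered the tests over 12560 genes. These were SLC19A1, SLC46A1, FOLR1, SLC25A32, FPGS and GGH. FOLR2, FOLR3 and SLCO1B1 did not, and are described by level alone. By limma with Benjamini-Hochberg adjustment over all 12560 genes, 1 of the 6 members differed between the lineages. FPGS was lower in T-ALL, while 3.67% of all genes tested were lower and 3.96% were higher. The median difference, T-ALL minus BCP-ALL, was -0.21 log2 units over the 6 members and 0.034 over all genes. With 6 genes tested, this count says nothing of the set as a whole.

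The reduced folate carrier SLC19A1, the main entry route of MTX, lay above the array median in all 13 lines and varied little. Its level in T-ALL was 8.04 in ALL-SIL, 7.37 in CCRF-CEM, 7.995 in HPB-ALL, 8.13 in Jurkat, 7.84 in Molt4, 7.45 in P12-ICHIKAWA and 7.65 in TALL-1. In BCP-ALL it was 7.33 in 697, 8.21 in Nalm6, 8.10 in REH, 8.03 in RS4,11, 7.64 in Nalm16 and 8.32 in Nalm30. Lines of both lineages stood at the low end (697, CCRF-CEM, P12-ICHIKAWA) and at the high end (Nalm30, Nalm6, Jurkat), and the lineages overlapped over nearly the whole range. The means were 7.78 ± 0.298 (SD, n = 7) in T-ALL and 7.94 ± 0.379 (SD, n = 6) in BCP-ALL, a difference of -0.16 with a 95% interval of -0.58 to 0.27 (limma adjusted p = 0.648). Its SD over the 13 lines, 0.333, ranked 9769 of 12560 genes from the largest.

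The 7 probe sets of SLC19A1 did not give 1 picture. Probe set 211576_s_at had the highest mean and is the one used above. Probe sets 209777_s_at (5.83 to 7.16), 209776_s_at (5.21 to 6.64), 1555952_at (5.17 to 6.11) and 1555953_at (4.64 to 6.12) were lower, and the remaining pair, 209775_x_at and 229639_s_at, lay near the floor in all 13 lines. Over the 13 lines, 209777_s_at and 209776_s_at followed each other closely (r = 0.929), whereas 211576_s_at followed them less (r = 0.651 and 0.526). Nalm30 was the highest line by 211576_s_at (8.32) but stood at 6.58 by 209777_s_at, where Nalm6 was highest at 7.16. By 209777_s_at, T-ALL averaged 6.50 ± 0.425 (SD, n = 7) and BCP-ALL 6.69 ± 0.478 (SD, n = 6), so its lineage difference was also smaller than the spread between lines. The order of the lines for this carrier therefore depended on the probe set. These correlations describe 13 lines on shared arrays.

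**Figure D2:**
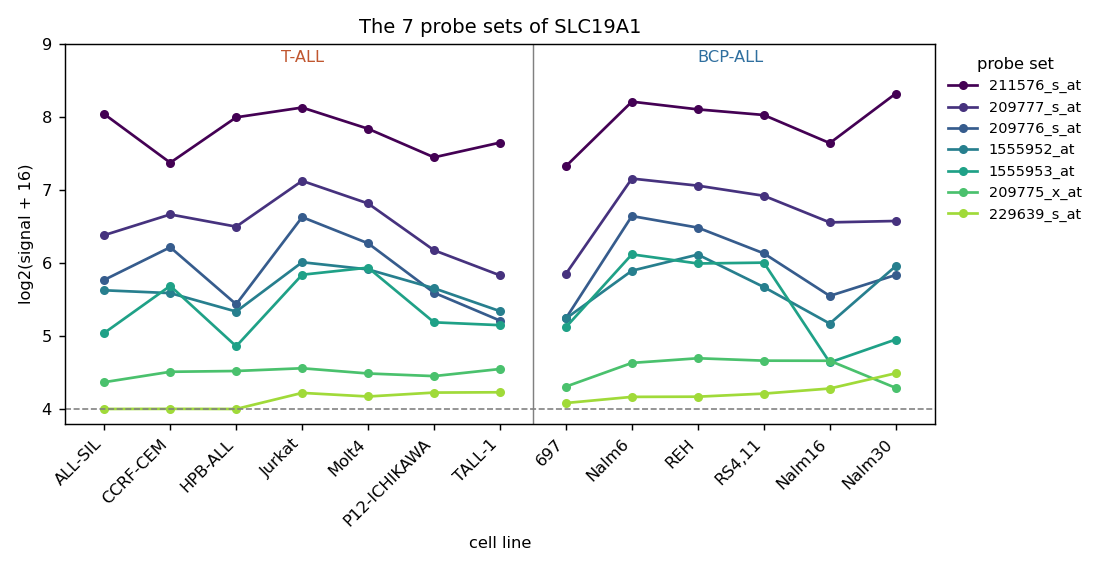
Values of the 7 probe sets of SLC19A1 as log2(signal + 16) in each line, T-ALL left of the vertical line and BCP-ALL right of it; each coloured line joins 1 probe set's values within a lineage and the dashed line is the floor of 4. The 2 lowest probe sets stay near the floor in every line, and 211576_s_at and 209777_s_at order the lines differently, with Nalm30 at 8.32 and 6.58.

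SLC46A1, the proton-coupled folate transporter that takes up folate in the intestine at low pH, lay above the array median in all 13 lines. In ALL-SIL it did so by little, at 5.20 against an array median of 5.15. Its level ran from 5.20 in ALL-SIL through a median of 5.44 to 5.70 in Molt4 among T-ALL lines, and from 5.45 in REH through a median of 5.70 to 5.93 in RS4,11 among BCP-ALL lines. The lineages overlapped, with Molt4 high and REH low for their groups. The means were 5.45 ± 0.159 (SD, n = 7) in T-ALL and 5.71 ± 0.162 (SD, n = 6) in BCP-ALL, a difference of -0.26 with an interval of -0.54 to 0.018, which did not pass (limma adjusted p = 0.224). A two-sided exact permutation test of this gene alone gave an unadjusted p = 0.0169, 1 of 9 such tests on the members. Its other 3 probe sets were near the floor in 4, 8 and 12 of the 13 lines.

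The folate receptors, which take folates up by endocytosis, read near the floor in most lines by 4 of their 5 probe sets. FOLR1 had 2 probe sets that disagreed. By 211074_at it lay between 8.17 and 9.01 in T-ALL (median 8.65) and between 8.24 and 9.24 in BCP-ALL (median 8.79). By 204437_s_at it lay between 4.42 and 5.25 in T-ALL and between 4.35 and 4.98 in BCP-ALL, near the floor in 11 of 13 lines, and the correlation of both probe sets over the lines was only 0.257. The level of FOLR1 is therefore unsettled by this array. By 211074_at the lineage difference was -0.095 (interval -0.53 to 0.34, limma adjusted p = 0.804).

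FOLR2, a receptor known from placenta and macrophages, ran from 4.82 to 5.15 in T-ALL and from 4.75 to 5.29 in BCP-ALL, near the floor in 7 lines. FOLR3, a secreted folate-binding protein of neutrophil granules, ran from 4.20 to 4.97 in T-ALL and from 4.23 to 4.76 in BCP-ALL. SLCO1B1, the hepatocyte carrier that clears MTX from blood, ran from 4.001 to 4.60 in T-ALL and from 4.0001 to 4.34 in BCP-ALL. The last 2 genes were near the floor in all 13 lines. Of 3 hepatocyte markers, ALB was near the floor in 13 lines, APOA1 in 9 and SERPINA1 in 7.

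SLC25A32, the carrier that moves folate into mitochondria, had the second widest range of the 6 members tested, 3.04 log2 units. In T-ALL it was 7.65 in ALL-SIL, 9.10 in CCRF-CEM, 8.89 in HPB-ALL, 9.44 in Jurkat, 9.56 in Molt4, 8.81 in P12-ICHIKAWA and 8.84 in TALL-1. In BCP-ALL it was 9.39 in 697, 9.84 in Nalm6, 9.16 in REH, 9.92 in RS4,11, 6.88 in Nalm16 and 7.74 in Nalm30. Nalm16, ALL-SIL and Nalm30 were lowest, and the other 10 lay at 8.81 or above. The lineage difference did not pass, with means of 8.90 ± 0.625 (SD, n = 7) in T-ALL and 8.82 ± 1.24 (SD, n = 6) in BCP-ALL (difference 0.080, interval -0.97 to 1.13, limma adjusted p = 0.938). Without Nalm16 and Nalm30, the difference turned to -0.68 (adjusted p = 0.293), and with quantile normalization to -0.078.

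FPGS, the enzyme that lengthens the glutamate chain, was the member that set the lineages apart. In T-ALL it was 8.36 in ALL-SIL, 8.20 in CCRF-CEM, 7.92 in HPB-ALL, 8.57 in Jurkat, 8.42 in Molt4, 7.56 in P12-ICHIKAWA and 7.42 in TALL-1. In BCP-ALL it was 9.01 in 697, 8.91 in Nalm6, 8.89 in REH, 9.15 in RS4,11, 8.91 in Nalm16 and 9.25 in Nalm30. The highest T-ALL line, Jurkat, was below the lowest BCP-ALL line, REH, so the groups did not overlap. Such a gap with T-ALL lower was found in 1.82% of the 12560 genes. T-ALL lines were also more spread, with P12-ICHIKAWA and TALL-1, the most alike pair, at the bottom.

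FPGS averaged 8.07 ± 0.443 (SD, n = 7) in T-ALL and 9.02 ± 0.147 (SD, n = 6) in BCP-ALL. The difference was -0.95 log2 units (SE 0.199, 95% interval -1.38 to -0.53, limma adjusted p = 0.0102). With P12-ICHIKAWA and TALL-1 as 1 line it was -0.86 (adjusted p = 0.0207), and without Nalm16 and Nalm30 it was -0.93 (adjusted p = 0.0385). With any 1 line left out it stayed between -1.04 and -0.85, with adjusted p from 0.00698 to 0.0273. The two-sided exact permutation test over all 1716 splits of the 13 lines gave p = 0.00117. FPGS has 1 probe set, 202945_at, so no second one could be set beside it.

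**Figure D3:**
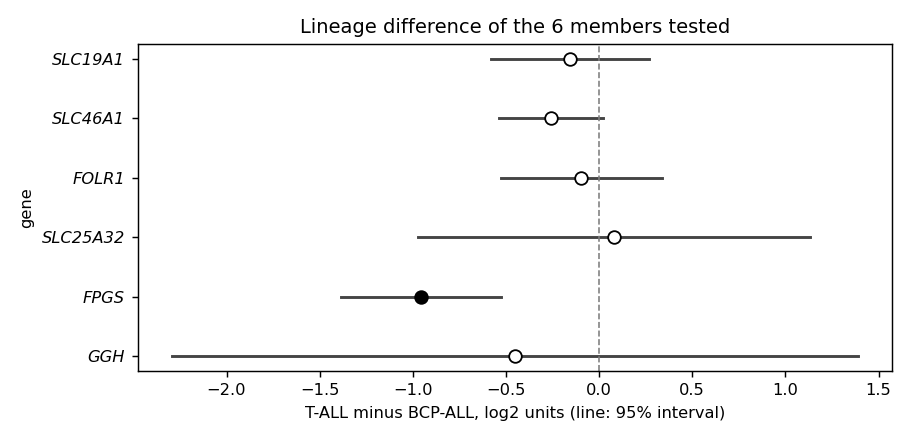
Difference in level, T-ALL minus BCP-ALL, in log2 units for the 6 members tested, with 95% intervals from limma; the filled point has an adjusted p below 0.05. FPGS stands at -0.95 with an interval from -1.38 to -0.53, and the intervals of the other 5 members include 0.

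The sequence upstream of FPGS is shown because FPGS was the member that differed between lineages. It comes from RefSeq on GRCh38.p14, chr9:127802608-127802857, plus strand, and is the 250 bases before the most upstream of 3 listed starts, with the letters of the GC box GGGCGG in capitals.
FPGS: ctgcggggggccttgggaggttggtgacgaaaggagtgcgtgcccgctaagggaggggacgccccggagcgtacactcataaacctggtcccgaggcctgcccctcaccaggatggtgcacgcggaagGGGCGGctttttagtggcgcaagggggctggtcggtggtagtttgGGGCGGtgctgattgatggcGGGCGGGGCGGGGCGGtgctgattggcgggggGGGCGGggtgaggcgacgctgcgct
A search on both strands found 6 matches to GGGCGG, 3 of them overlapping in 1 run, 1 match to CCAAT and none to TATAAA. Of 35116 promoter windows of the same length, 42.6% hold GGGCGG, 32% hold CCAAT and 10.7% hold TATAAA. The E-box CACGTG had no match in this window and is held by 6.34% of windows. GC made up 69.6% of the bases. The array did not measure binding to this window.

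GGH, the enzyme that shortens the chain, varied more than any other member, with an SD of 1.64 that ranked 675 of 12560 genes from the largest. In T-ALL it was 4.24 in ALL-SIL, 9.21 in CCRF-CEM, 8.24 in HPB-ALL, 8.97 in Jurkat, 8.95 in Molt4, 8.56 in P12-ICHIKAWA and 8.48 in TALL-1. In BCP-ALL it was 10.14 in 697, 8.42 in Nalm6, 9.02 in REH, 10.38 in RS4,11, 6.42 in Nalm16 and 6.89 in Nalm30. ALL-SIL was near the floor, Nalm16 and Nalm30 were next, and the other 10 lines lay between 8.24 and 10.38. The lineages overlapped, with means of 8.09 ± 1.73 (SD, n = 7) in T-ALL and 8.55 ± 1.64 (SD, n = 6) in BCP-ALL. The difference of -0.45 (interval -2.29 to 1.39, limma adjusted p = 0.779) turned to 0.19 without ALL-SIL. GGH also has 1 probe set, 203560_at.

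The 3 lines lowest in GGH were the 3 lowest in SLC25A32. Over the 13 lines the correlation of these members was r = 0.826 (rho = 0.714), with r = 0.927 within T-ALL and 0.878 within BCP-ALL. The r within T-ALL includes ALL-SIL, and that within BCP-ALL includes Nalm16 and Nalm30. The correlation without these 3 low lines was not computed. SLC25A32 ranked 31 of 12559 other genes by its r with GGH. FPGS and GGH had r = 0.0597. SLC46A1 and FPGS had r = 0.648 over all lines, but 0.166 within T-ALL and 0.607 within BCP-ALL. These values describe 13 arrays in which Nalm16 and Nalm30 also had the lowest array medians of BCP-ALL, and ALL-SIL the lowest of T-ALL (5.15). The part of the array medians in the low GGH and SLC25A32 was not tested.

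The genes most alike to SLC19A1 over the 13 lines were PWWP3A (r = 0.915), PIM2, a survival kinase (r = 0.892), and ATPAF2 (r = 0.871). For FPGS they were COQ2, an enzyme of coenzyme Q synthesis (r = 0.960), SLC52A2, a riboflavin transporter (r = 0.936), and TSPAN17 (r = 0.935). For GGH they were SMIM20 (r = 0.922), ABCC4, an exporter that also carries MTX (r = 0.911), and NT5DC3 (r = 0.908). Each r was taken over 13 lines and is among the highest of 12559, so it is given as a description.

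**Figure D4:**
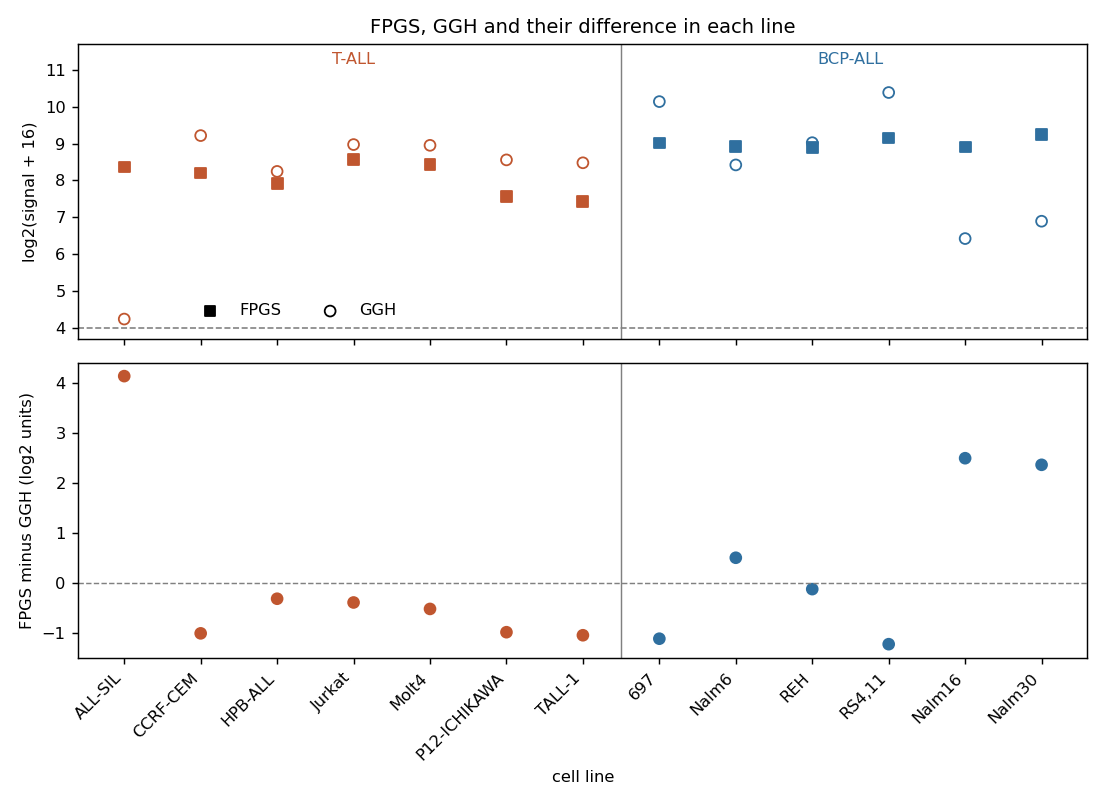
Upper panel, log2(signal + 16) of FPGS (filled squares) and GGH (open circles) in each line, with the floor of 4 dashed; lower panel, FPGS minus GGH in log2 units, T-ALL left and BCP-ALL right of the vertical line. ALL-SIL, Nalm16 and Nalm30 stand apart at 4.13, 2.49 and 2.35, through their low GGH, and the other 10 lines lie between -1.23 and 0.50.

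The array measured RNA, and neither enzyme activity nor MTX polyglutamates. To set the RNA of the enzyme that adds glutamates against that of the enzyme that removes them, FPGS minus GGH was taken per line. Since both come from different probe sets, its zero has no meaning and only differences between lines can be read. In T-ALL it was 4.13 in ALL-SIL, -1.02 in CCRF-CEM, -0.32 in HPB-ALL, -0.40 in Jurkat, -0.53 in Molt4, -0.99 in P12-ICHIKAWA and -1.05 in TALL-1. In BCP-ALL it was -1.12 in 697, 0.50 in Nalm6, -0.13 in REH, -1.23 in RS4,11, 2.49 in Nalm16 and 2.35 in Nalm30. ALL-SIL, Nalm16 and Nalm30, the lines low in GGH, stood apart from the other 10. Since GGH was near the floor in ALL-SIL, its 4.13 is a lower bound, and it enters the means, SDs and r below at that value. The means were -0.026 ± 1.86 (SD, n = 7) in T-ALL and 0.48 ± 1.64 (SD, n = 6) in BCP-ALL, a difference of -0.50 that did not pass (two-sided exact permutation p = 0.651). Without ALL-SIL it was -1.19 (exact p = 0.126), and without Nalm16 and Nalm30 it turned to 0.47 (exact p = 0.827). FPGS itself was lower in T-ALL, whereas no lineage difference in FPGS minus GGH passed the test.

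FPGS minus GGH was then compared with the MTX concentration that gives half-maximal inhibition (IC50) after 48 and 96 hours, as measured in the same lines. At 48 hours, lines with a higher FPGS minus GGH had a higher IC50, with Pearson's r = 0.686 (two-sided permutation p = 0.00982, 0.0196 after Benjamini-Hochberg adjustment over both times). Spearman's rho was 0.412 (permutation p = 0.162, adjusted p = 0.325). Nalm30 and Nalm16 had the highest IC50 at 48 hours, and without these farthest lines r was 0.479 (permutation p = 0.131). ALL-SIL was at rank 10 of 13, and without all 3 lines r was 0.0157 (permutation p = 0.966). The relation thus rested on Nalm16, Nalm30 and ALL-SIL. Within T-ALL r was 0.558 (exact permutation p = 0.168, n = 7), and within BCP-ALL 0.830 (exact permutation p = 0.0833, n = 6), while rho was 0.429 in both (exact permutation p = 0.354 in T-ALL and 0.419 in BCP-ALL). With any 1 line left out, r stayed between 0.618 (without Nalm16) and 0.791 (without HPB-ALL).

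At 96 hours no relation passed. Pearson's r was -0.128 (permutation p = 0.701, adjusted p = 0.701) and rho was -0.231 (permutation p = 0.447). Without HPB-ALL and Jurkat, the lines farthest from the median IC50, r was -0.0179. ALL-SIL, highest in FPGS minus GGH, had the lowest IC50 at 96 hours, and without it r was 0.193. Within T-ALL r was -0.356 (exact permutation p = 0.465, n = 7), and within BCP-ALL 0.421 (exact permutation p = 0.449, n = 6). By rho these were 0.143 in T-ALL (exact permutation p = 0.783) and 0.0857 in BCP-ALL (exact permutation p = 0.919), so the sign within T-ALL depended on the coefficient. The difference between the slopes of the lineages did not pass an exact permutation test of the lineage labels. They were -0.52 log2 units per 10 nM in T-ALL and 0.87 in BCP-ALL at 96 hours (difference -1.39, exact p = 0.366), and 0.35 in both at 48 hours (exact p = 0.997).

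**Figure D5:**
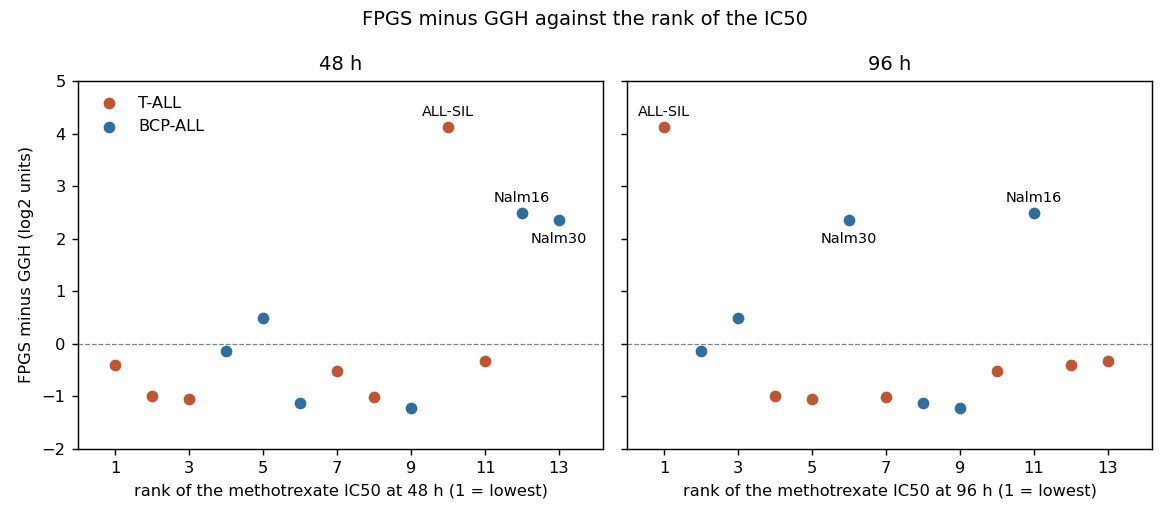
FPGS minus GGH (log2 units) against the rank of the MTX IC50 among the 13 lines (1 = lowest), at 48 hours (left) and 96 hours (right), T-ALL and BCP-ALL in different colours, 1 point per line. ALL-SIL, Nalm16 and Nalm30 are at ranks 10, 12 and 13 at 48 hours and at ranks 1, 11 and 6 at 96 hours.

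Fitted 1 gene at a time on the IC50, 0 of the 6 members passed at either time. At 48 hours limma called 0.541% of the 12560 genes, and at 96 hours 0%, where 364 genes and 0 of the 6 members had an unadjusted p below 0.05. At 48 hours 2 of the 6 did, SLC25A32 and GGH, as did 26.3% of all genes. SLC25A32 had a slope of -0.20 log2 units per 10 nM (interval -0.32 to -0.087, limma adjusted p = 0.0638). GGH had -0.31 (interval -0.54 to -0.076, limma adjusted p = 0.0997). FPGS had 0.046 (interval -0.061 to 0.15, limma adjusted p = 0.577), SLC19A1 0.028 (adjusted p = 0.574), FOLR1 -0.019 (adjusted p = 0.724) and SLC46A1 0.0024 (adjusted p = 0.959). The slope of SLC19A1 is that of 211576_s_at alone. Its other probe sets, which order the lines differently, were not fitted on the IC50. The study reports a negative correlation of SLC19A1 with MTX resistance, with no probe set or time given. Without HPB-ALL, SLC25A32 and GGH both passed (adjusted p = 0.0112 and 0.0442), and without ALL-SIL, SLC25A32 did (adjusted p = 0.0499). In these settings 19.7% and 9.67% of all genes passed, so the calls are no result about the members. Without Nalm16 and Nalm30, 0 members passed, and GGH kept a slope of -0.32 with an adjusted p of 0.835. At 96 hours the slopes of the 6 members lay between -0.077 and 0.21, all with adjusted p of 0.998 or above. SLC19A1 had a slope of 0.017 at that time, and r = 0.0538 over all lines (permutation p = 0.858). Its r was 0.521 within T-ALL (exact permutation p = 0.237) and -0.539 within BCP-ALL (exact permutation p = 0.279).

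Other folate genes were counted in 3 lists. Of 9 relatives of the transporters, 8 were measured and 4 tested, and 1 was higher in T-ALL. This was SLC19A2, a thiamine transporter of the same family as SLC19A1, with a mean of 6.89 in T-ALL and 5.00 in BCP-ALL (difference 1.89, SE 0.465, limma adjusted p = 0.0253). Its BCP-ALL mean lay below the array medians there, so the value is a difference against a group with a low mean. Of 10 efflux pumps, 9 were measured and 6 tested, and 2 were higher in T-ALL. ABCC10 averaged 6.66 in T-ALL and 5.76 in BCP-ALL (difference 0.90, limma adjusted p = 0.0103). ABCC1, a pump known to export MTX, averaged 8.89 in T-ALL and 8.16 in BCP-ALL (difference 0.73, limma adjusted p = 0.0468). These counts stand against the 3.96% of all genes that were higher.

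Of 25 genes of the folate cycle, 21 were measured and 19 tested, and 1 was lower in T-ALL, beside the 3.67% of all genes that were lower. GLDC, which cleaves glycine in the mitochondrion, averaged 5.07 in T-ALL and 7.84 in BCP-ALL (difference -2.77, SE 0.765, limma adjusted p = 0.0425). Its T-ALL mean lay below the array medians there, so this too is a difference against a group with a low mean. The median lineage difference was 0.062 for the relatives, -0.081 for the pumps and 0.053 for the folate cycle, against 0.034 for all genes. On the IC50, 0 genes of the 3 lists passed by limma at either time. At 48 hours 0 relatives, 1 pump and 8 folate cycle genes had an unadjusted p below 0.05, where 26.3% of all genes did, and at 96 hours 1, 0 and 0.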

How the data were processed

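RNA of 13 untreated ALL lines was hybridised to HG-U133 Plus 2.0 arrays, 1 per line. The authors deposited log2 values of signals from the iterPLIER+16 algorithm, made in Expression Console of Affymetrix. Its version and the scaling between arrays are not given in the sources used here. Adding 16 sets a floor of 4 and shrinks differences of low genes. With 1 array per line the number of lines limits precision, and p-values set a difference or relation against the spread between lines.

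Of 42450 probe sets, 38125 had 1 symbol, 1742 several and 2583 none; those with 1 were used, with symbols updated through GRCh38.p14 gene identifiers. Each gene took its probe set with the highest mean, and 12560 of 18568 genes were kept that lay above the array median in at least 3 lines. limma 3.58.1 in R 4.3.3 fitted lineage and IC50 over all kept genes, at an adjusted p of 0.05. Permutation tests used 100000 resamples, all 1716 splits, or all 720 (6 lines) or 5040 pairings (7 lines), in Python 3.11.15 with scipy 1.17.1, numpy 2.4.6, pandas 2.3.3 and matplotlib 3.10.9. IC50 values came from the study's supplement and served only as the x variable. Each fit was tested on simulated data.

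Named genes were the members, the 3 genes most correlated with SLC19A1, FPGS and GGH, and up to 2 passing genes per list, plus lineage and hepatocyte markers. The members and lists were chosen with earlier results of these data known. Alternatives covered normalization, the filter, probe sets, the variance model, the IC50 scale, lineage, and lines left out. Settings without Nalm16 and Nalm30, and without ALL-SIL for FPGS minus GGH, were added after seeing the data.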

Additional observations from a re-analysis of the deposited data

Results flagged for a closer look

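In 3 of 20 groups (10 measures in each lineage), 1 line stood far from the rest of its lineage by Dixon's criterion, which chance meets in about 1 in 20 groups. All 3 were ALL-SIL. GGH in ALL-SIL, 4.24, was the lowest of T-ALL, where the other 6 lines lay between 8.24 and 9.21. SLC25A32 in ALL-SIL, 7.65, was also the lowest of T-ALL, where the other 6 lay between 8.81 and 9.56. FPGS minus GGH in ALL-SIL, 4.13, was the highest of T-ALL and follows from its GGH, so the first and the third are 1 measurement. With GGH near the floor, that difference is a lower bound.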

How the results depend on the processing

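The lower FPGS in T-ALL passed in all 19 alternatives, with adjusted p at most 0.0385 (without Nalm16 and Nalm30). FPGS and GGH have 1 probe set each, so averaging probe sets changed nothing in their difference. FPGS minus GGH by lineage ran from -1.19 (without ALL-SIL) to -0.10 (without Nalm16) with 1 line left out, and was 0.47 without Nalm16 and Nalm30. Its r with the IC50 at 96 hours ran from -0.333 (without Nalm16) to 0.193 (without ALL-SIL), and was 0.108 without ALL-SIL, Nalm16 and Nalm30. At 48 hours its r ran from 0.618 to 0.791, but by rho was 0.412, without Nalm16 and Nalm30, also the lines farthest from the median IC50, 0.479, and without ALL-SIL as well 0.0157. The members called on the IC50 at 48 hours were 0 to 2 with 1 line left out, 1 without ALL-SIL, where 9.67% of all genes passed, and 2 without HPB-ALL, where 19.7% did.

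Values with no call turned sign. With 1 line left out, lineage differences ran from -0.193 (without Nalm16) to 0.0087 (without Nalm30) for FOLR1, from -0.878 (without Nalm16) to 0.190 (without ALL-SIL) for GGH, and from -0.309 (without Nalm16) to 0.300 (without RS4,11) for SLC25A32. SLC25A32 was -0.677 without Nalm16 and Nalm30 and -0.078 by quantile normalization. Slopes on the IC50 at 96 hours ran from -0.056 (without TALL-1) to 0.145 (without HPB-ALL) for FPGS, from -0.265 (without ALL-SIL) to 0.488 (without Nalm16) for GGH, and from -0.201 (without ALL-SIL) to 0.207 (without Nalm16) for SLC25A32. The slope of FPGS was 0.0396 on log2 IC50 and 0.0675 with lineage as a covariate, and that of SLC25A32 was 0.0703 on log2 IC50 and 0.169 without Nalm16 and Nalm30. At 48 hours FPGS was -0.0229 without Nalm16 and Nalm30. The causes were not tested.

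Over all genes, limma called 958 by lineage, 610 with P12-ICHIKAWA and TALL-1 as 1 line, 609 without TALL-1, 629 without P12-ICHIKAWA and 1223 without REH. On the IC50 at 48 hours it called 68, against 19 with that pair as 1 line, 5 on log2 IC50, 241 with lineage as a covariate, 4 without Nalm16 and Nalm30, and 7 (without Nalm30) to 2473 (without HPB-ALL) with 1 line left out. No paired analysis was possible because the labels number no lines across lineages.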
